A study of Mus musculus with 19 samples.

Results

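Homeostatic microglia markers are genes that microglia, the resident macrophages of the healthy brain, express strongly. Other cells share some of these transcripts. The 10 genes described here are P2ry12, P2ry13, Gpr34, Cx3cr1, Tmem119, Siglech, Fcrls, Selplg, Sall1 and Olfml3. They were chosen by name, and each was found in the count table through its Ensembl identifier, so that 10 of 20655 listed genes are members. All 10 passed the filter on low counts that left 18204 genes for testing.

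Microglia carry a set of surface receptors with which they sense their surroundings. P2ry12 and P2ry13 detect ADP released by damaged or active cells, Gpr34 responds to lysophosphatidylserine, and Cx3cr1 binds fractalkine, a chemokine made by neurons. In mouse models of amyloid deposition, microglia that gather at plaques are known to lower many of these genes while they raise another set, often called disease-associated.

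The samples were left hippocampi of 19 mice aged 4 months, 1 bulk RNA-seq library per mouse. All of them were hemizygous 5xFAD mice (5xFADHEMI), a model in which neurons express mutant human amyloid precursor protein and presenilin 1 under the Thy1 promoter. Of these, 9 were also homozygous for the clusterin knock-in that the labels call CLUh2kbKIHO (4 females, 5 males), and 10 carried the 5xFAD transgenes alone (5 females, 5 males). Both sets of mice therefore carry the amyloid transgenes, and a group without them was not analysed here. By its title the study asked how clusterin bears on astrocyte reactivity and on synapse density through microglia, and the comparison here is of knock-in with 5xFAD mice.

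Promoter windows of 4 of these genes, all on chromosome 3, are printed: P2ry12 and P2ry13 because they are neighbouring ADP receptor genes, Fcrls because it holds both motifs searched, and Olfml3 because it passed the test below. Each covers 250 bases before to 50 bases after the annotated start, from RefSeq on GRCm38.p6, along the gene's strand. The last bases of the P2ry13, Fcrls and Olfml3 windows were found in annotated transcripts of those genes. Those of the P2ry12 window were not found in either orientation, so its place was not checked in this way. The windows are chr3:59262936-59263235 for P2ry12, chr3:59210833-59211132 for P2ry13, chr3:87263475-87263774 for Fcrls and chr3:103737952-103738251 for Olfml3, all on the minus strand. Capitals mark the PU-box core GAGGAA, a sequence bound by the myeloid factor PU.1, and the TATA box TATAAA, searched on both strands.
P2ry12: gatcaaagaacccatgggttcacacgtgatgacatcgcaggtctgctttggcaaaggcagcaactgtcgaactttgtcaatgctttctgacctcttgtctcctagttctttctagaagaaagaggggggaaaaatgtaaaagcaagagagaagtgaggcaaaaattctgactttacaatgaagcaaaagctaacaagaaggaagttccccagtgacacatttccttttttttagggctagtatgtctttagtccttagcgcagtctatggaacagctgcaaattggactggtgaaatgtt
P2ry13: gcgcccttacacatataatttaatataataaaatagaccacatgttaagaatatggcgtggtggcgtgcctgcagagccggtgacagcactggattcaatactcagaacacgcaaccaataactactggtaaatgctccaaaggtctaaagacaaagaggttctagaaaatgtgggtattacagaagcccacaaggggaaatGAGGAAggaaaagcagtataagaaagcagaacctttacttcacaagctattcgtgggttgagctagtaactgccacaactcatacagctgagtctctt
Fcrls: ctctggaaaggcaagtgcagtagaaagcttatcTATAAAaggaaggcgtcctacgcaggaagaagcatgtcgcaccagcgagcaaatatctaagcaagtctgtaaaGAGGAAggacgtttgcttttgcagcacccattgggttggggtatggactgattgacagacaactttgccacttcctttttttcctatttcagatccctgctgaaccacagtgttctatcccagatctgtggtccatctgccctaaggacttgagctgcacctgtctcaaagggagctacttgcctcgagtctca
Olfml3: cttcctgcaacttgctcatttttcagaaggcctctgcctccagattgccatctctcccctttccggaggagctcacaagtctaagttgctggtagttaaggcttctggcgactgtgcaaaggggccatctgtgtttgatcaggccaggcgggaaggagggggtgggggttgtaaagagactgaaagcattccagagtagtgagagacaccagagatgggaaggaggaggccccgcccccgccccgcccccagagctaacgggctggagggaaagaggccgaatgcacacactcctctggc

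RefSeq windows were matched for 7 of the 10 members, and Sall1 has 3 of them. GAGGAA or its reverse complement TTCCTC was present in the windows of 3 members, P2ry13, Fcrls and Siglech, against 28.3% of 32851 promoter windows of the same length. TATAAA or TTTATA was present in 1, Fcrls, against 13.6%. In P2ry13 the PU-box core begins at -48 and in Fcrls at -144 relative to the annotated start. The 2 motifs do not overlap in the Fcrls window. A match is a description of the letters in the window.

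Libraries held 17.28 to 25.2 M counts, where M is mega. Values below are counts per M counts (CPM), scaled by trimmed-mean (TMM) factors. The deposited files also hold a feature that sets libraries apart. The authors' own scaling factors, taken over 10640 genes that are on no list used here, separate the libraries into 2 classes along their leading component (55.0% of the variance), with a gap of 31.9% of the whole range against 20.2% for the largest gap within a class. The first class holds 12 libraries (6 knock-in, 6 5xFAD) and the second holds 7 (3 knock-in, 4 5xFAD). Knock-in females split 3 and 1 between the first and second class, knock-in males 3 and 2, 5xFAD females 2 and 3, and 5xFAD males 4 and 1. The labels name NovaSeq and HiSeq instruments without saying which library ran on which, so what the classes are cannot be read from the labels. They were noticed after the data were seen, and the genotype effect on the members is given for all libraries and within each class. The comparisons of the sexes and the test relative to microglial reference genes were not split by class. Clu itself, mouse clusterin, differed by 0.12 on the log2 scale between genotypes (exact permutation test within sex, two-sided p = 0.292), with 0.19 ± 0.088 in the first class and -0.088 ± 0.12 in the second (log2, SE, edgeR), and reads of the inserted sequence were not analysed here. Whether bulk differences reflect fewer cells or less RNA per cell cannot be told apart.

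All 10 members had a fitted change above 0, knock-in against 5xFAD, as did 49.6% of all genes, and 1 of them, Olfml3, passed the test. The log2 changes ran from 0.20 for Sall1 to 0.62 for Olfml3 with a median of 0.40, against a median of -0.0013 over all genes tested. The test was edgeR's quasi-likelihood test with sex as a covariate and Benjamini-Hochberg adjustment over all 18204 genes, and the share of all genes it called higher was 0.022%. At an unadjusted p under 0.05, 9 of the 10 were higher, against 6.15% of all genes. DESeq2 called 5 members, Olfml3, Fcrls, Selplg, P2ry13 and Tmem119 (adjusted p = 6.59e-05 to 0.0463), where it called 0.511% of all genes higher. For no member did the 9 knock-in libraries all lie above the 10 5xFAD libraries, which 0.00549% of all genes did.

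**Figure D1:**
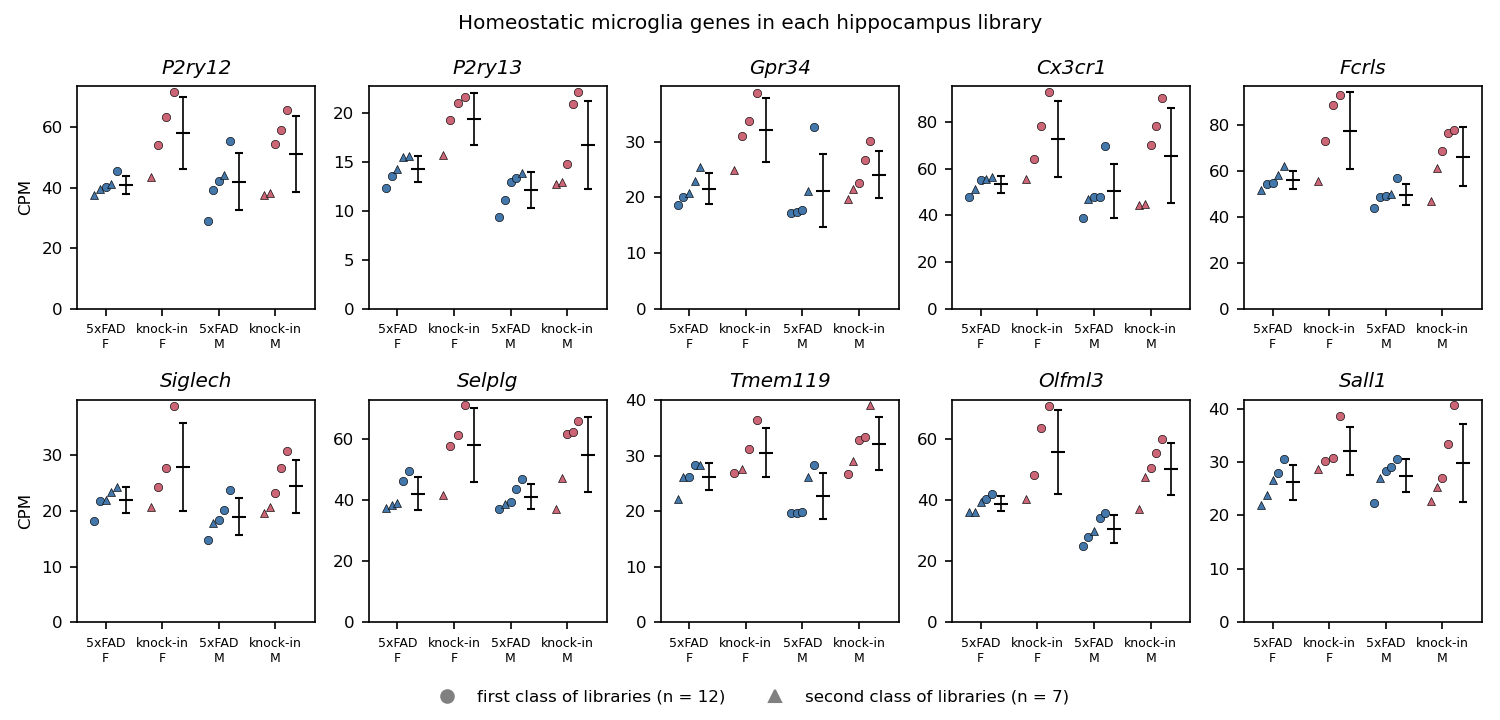
CPM of each of the 10 homeostatic genes in every library (points), by genotype and sex, with group mean and SD (black bars). Circles are libraries of the first class and triangles those of the second class. In most panels the high knock-in points are circles, while knock-in triangles lie among the 5xFAD points.

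Olfml3 encodes a secreted glycoprotein with an olfactomedin domain. In knock-in females it was at 40.6, 48.3, 63.9 and 70.8 CPM, and in 5xFAD females at 36.3, 39.6, 40.5, 36.3 and 42.1 CPM. In knock-in males it was at 47.8, 50.7, 59.98, 55.6 and 37.3 CPM, and in 5xFAD males at 24.96, 34.2, 28.1, 35.8 and 29.9 CPM. The males of the 2 genotypes do not overlap, as was so of 0.527% of all genes, and among the females 1 knock-in library, at 40.6 CPM, lies within the range of the 5xFAD females. The fitted change was 0.62 ± 0.10 (log2, SE; adjusted p = 0.0277, edgeR), a 1.54-fold higher level. The call did not hold with library size scaling alone (adjusted p = 0.104), with the authors' scaling (0.188 as offsets) or without any one of 9 of the 19 libraries (adjusted p = 0.0521 to 0.0999). These were knock-in females 4 and 5, knock-in males 7, 8 and 9, 5xFAD females 1 and 4, and 5xFAD males 6 and 8.

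P2ry12, the ADP receptor that directs microglial processes to injury, was at 43.5, 71.6, 63.4 and 54.1 CPM in knock-in females and at 39.5, 41.4, 40.1, 37.7 and 45.6 CPM in 5xFAD females. The males were at 38.3, 54.4, 59.1, 65.9 and 37.8 CPM with the knock-in and at 55.3, 42.2, 39.4, 29.0 and 44.4 CPM without. The genotypes overlap in both sexes, and the 3 second-class knock-in libraries are the 3 lowest of the 9. Its change was 0.39 ± 0.12 (log2, SE; adjusted p = 0.256, edgeR).

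P2ry13, a related ADP receptor, was at 15.7, 21.0, 21.6 and 19.2 CPM in knock-in females and at 14.2, 15.6, 13.6, 15.5 and 12.4 CPM in 5xFAD females. Knock-in males were at 12.95, 14.7, 20.9, 22.1 and 12.7 CPM and 5xFAD males at 13.3, 12.95, 11.1, 9.37 and 13.9 CPM. Its females do not overlap between genotypes, by 15.7 against 15.6 CPM at the nearest point, as was so of 3.86% of all genes. The change was 0.45 ± 0.11 (log2, SE; adjusted p = 0.165, edgeR). P2ry12 and P2ry13 both lie within Med12l on the opposite strand, sharing 9 and 0 exonic bases with it, and since the labels do not state strand, reads from Med12l cannot be fully told apart. Med12l had a change of -0.15 ± 0.10 (log2, SE).

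Gpr34, the lysophosphatidylserine receptor, was at 24.9, 31.1, 38.8 and 33.6 CPM in knock-in females and at 25.5, 23.0, 19.98, 20.9 and 18.5 CPM in 5xFAD females. In males it was at 21.5, 22.6, 26.6, 30.1 and 19.6 CPM with the knock-in and at 32.6, 17.8, 17.2, 17.3 and 21.1 CPM without. 1 5xFAD male, at 32.6 CPM, is above every knock-in male. The change was 0.37 ± 0.13 (log2, SE; adjusted p = 0.292, edgeR). Gpr34 lies within Cask on the opposite strand, with 0 shared exonic bases.

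Cx3cr1, the fractalkine receptor, was at 55.7, 64.3, 78.5 and 92.7 CPM in knock-in females and at 51.1, 55.8, 47.8, 56.6 and 55.3 CPM in 5xFAD females. The level in males was 45.1, 78.4, 90.1, 70.1 and 44.4 CPM with the knock-in and at 69.8, 47.9, 38.8, 48.0 and 46.9 CPM without. Both second-class knock-in males, at 45.1 and 44.4, lie among the 5xFAD males. The change was 0.42 ± 0.13 (log2, SE; adjusted p = 0.260, edgeR). Cx3cr1 shares 78 exonic bases with the antisense gene Gm33858, whose reads cannot be told apart from its own there. Its ligand gene Cx3cl1 had a change of 0.0089 ± 0.082.

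Fcrls, an Fc receptor-like scavenger receptor of mouse microglia, was at 55.8, 73.1, 88.7 and 92.9 CPM in knock-in females and at 62.0, 58.3, 54.9, 51.6 and 54.4 CPM in 5xFAD females. Among males it stood at 61.3, 77.7, 68.7, 76.7 and 46.8 CPM with the knock-in and at 48.6, 49.1, 43.7, 56.8 and 50.1 CPM without. 6 of 9 knock-in libraries were above the highest 5xFAD library. The change was 0.44 ± 0.097 (log2, SE; adjusted p = 0.148, edgeR).

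Selplg, which encodes the selectin ligand PSGL-1, was at 41.8, 57.9, 61.4 and 71.3 CPM in knock-in females and at 39.1, 37.4, 46.3, 38.3 and 49.4 CPM in 5xFAD females. Male libraries were at 47.2, 62.4, 65.8, 61.8 and 37.2 CPM with the knock-in and at 39.4, 46.9, 37.0, 43.7 and 38.8 CPM without. Here too 6 of 9 knock-in libraries were above the highest 5xFAD library, and the change was 0.44 ± 0.11 (log2, SE; adjusted p = 0.155, edgeR).

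Tmem119, a transmembrane protein used to tell microglia from other macrophages, was at 27.6, 26.8, 31.3 and 36.5 CPM in knock-in females and at 22.2, 28.3, 26.2, 26.1 and 28.3 CPM in 5xFAD females. Males had 39.1, 32.9, 33.3, 26.6 and 29.0 CPM with the knock-in and at 19.95, 19.7, 19.8, 28.4 and 26.2 CPM without. Its highest library, at 39.1 CPM, is a second-class knock-in male, in contrast to P2ry12 and P2ry13. The change was 0.37 ± 0.097 (log2, SE; adjusted p = 0.188, edgeR).

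Siglech, a sialic acid-binding lectin that pairs with the adaptor DAP12, ran from 19.7 to 38.7 CPM over the knock-in libraries (median 24.2) and from 14.8 to 24.3 CPM over the 5xFAD libraries (median 20.9), with a change of 0.36 ± 0.12 (log2, SE; adjusted p = 0.265, edgeR). Sall1, the zinc-finger transcription factor that maintains microglial identity, ran from 22.6 to 40.8 CPM (median 30.2) and from 22.0 to 30.5 CPM (median 27.5), with a change of 0.20 ± 0.10 (adjusted p = 0.454, edgeR). Both genes overlap between genotypes, and Sall1 was the one member whose unadjusted p, 0.0666, missed 0.05.

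Within each sex all 10 members were again above 0, against 51.1% of all genes in females and 51.9% in males. In females the changes ran from 0.22 for Tmem119 to 0.57 for Gpr34 (median 0.46), and 1 member, Olfml3 (0.52 ± 0.15, adjusted p = 0.0440, edgeR), was called, a call lost without any one of knock-in females 2, 4 and 5 or 5xFAD females 1, 2 and 4, where 1.13% of all genes were called higher and 5.56% in either direction. Without knock-in female 2 or knock-in female 4 the test called 0 genes in females. DESeq2 called 4 members in females and 3.06% of all genes higher. In males they ran from 0.12 for Sall1 to 0.72 for Olfml3 (median 0.40), and 0 members and 0% of all genes were called by edgeR, while 6 members were higher at an unadjusted p under 0.05 (3.39% of all genes) and DESeq2 called 1 member and 0.0824% of all genes higher. The female groups also differ in a set of 8 long noncoding RNAs, whose mean level was 6.16 to 7.08 (log2 CPM) in knock-in and 7.999 to 8.38 in 5xFAD females, without overlap. In a fit with that level as a covariate, 0 members and 0% of all genes were called higher in females, all 10 members stayed above 0 and Olfml3 was at 0.43 (log2).

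The difference of the genotype effect between females and males was called for 0 members by edgeR, against 0.308% of all genes in either direction. An unadjusted p under 0.05 was reached by 0 members, against 3225 of 18204 genes. DESeq2 called 0 members, against 234 genes higher and 532 lower. The difference ran from -0.28 for Tmem119 (approximate 95% interval -0.65 to 0.091) to 0.39 for Gpr34 (-0.093 to 0.87). These intervals include differences of a size like that of the genotype effect itself. Between females and males of 1 genotype edgeR called 0 members, against 0.0385% of all genes in 5xFAD and 0.0494% in knock-in mice. DESeq2 also called 0 members, against 5 genes higher and 42 lower in 5xFAD and 106 and 404 in knock-in mice. In each genotype 1 of the 10 members had an unadjusted p under 0.05, as did 2022 of 18204 genes in 5xFAD and 2615 in knock-in mice. The furthest from 0 were Olfml3 in 5xFAD mice (0.35 ± 0.14 higher in females, adjusted p = 0.386, edgeR) and Gpr34 in knock-in mice (0.41 ± 0.18, adjusted p = 0.274, edgeR).

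Within the first class of libraries, 6 of the 10 members were called higher in knock-in mice, where 0.533% of all genes were. These were Olfml3 (0.74 ± 0.11, adjusted p = 0.00312), P2ry13 (0.69 ± 0.11, 0.00327), Cx3cr1 (0.61 ± 0.12, 0.0171), Fcrls (0.61 ± 0.088, 0.00247), P2ry12 (0.54 ± 0.12, 0.0317) and Selplg (0.53 ± 0.083, 0.00326), all log2 with SE by edgeR. Siglech (0.54 ± 0.12, adjusted p = 0.0537), Gpr34 (0.53 ± 0.15, 0.121), Tmem119 (0.39 ± 0.12, 0.171) and Sall1 (0.24 ± 0.11, 0.301) were not. The call of P2ry12 was lost without any one of 9 libraries (adjusted p = 0.0530 to 0.0783) and that of Cx3cr1 when either female 5 (0.0579) or male 8 (0.0721) of the knock-in mice was left out. For P2ry13, Olfml3, Fcrls and Selplg the 6 knock-in libraries all lay above the 6 5xFAD libraries, as did those of 0.967% of all genes.

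In the second class, with 3 knock-in and 4 5xFAD libraries, 0 members and 0% of all genes were called by edgeR, and DESeq2 called 0 members. The changes there ran from -0.087 for Cx3cr1 to 0.35 for Olfml3 with a median of 0.035, and 1 member, Olfml3, was higher at an unadjusted p under 0.05, against 0.681% of all genes. Tmem119 was at 0.34 ± 0.17 in the second class and 0.39 ± 0.12 in the first. P2ry13 was at -0.044 ± 0.15 against 0.69 ± 0.11.

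The difference between the classes was tested in the same model and was called for 0 members and 0% of all genes (adjusted p = 0.9995 for each member, edgeR), while all 10 differences were above 0 (50.7% of all genes) and 6 were so at an unadjusted p under 0.05 (2.02% of all genes). DESeq2 called 0 members. The widest were 0.74 for P2ry13 (approximate 95% interval 0.37 to 1.11) and 0.70 for Cx3cr1 (0.29 to 1.10). A genotype effect that differs between the classes was therefore not shown past the threshold. The classes also differ in how the sexes are spread over the genotypes. The model holds a sex term that both classes share, so a genotype effect that differs by sex was not separated from class.

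**Figure D2:**
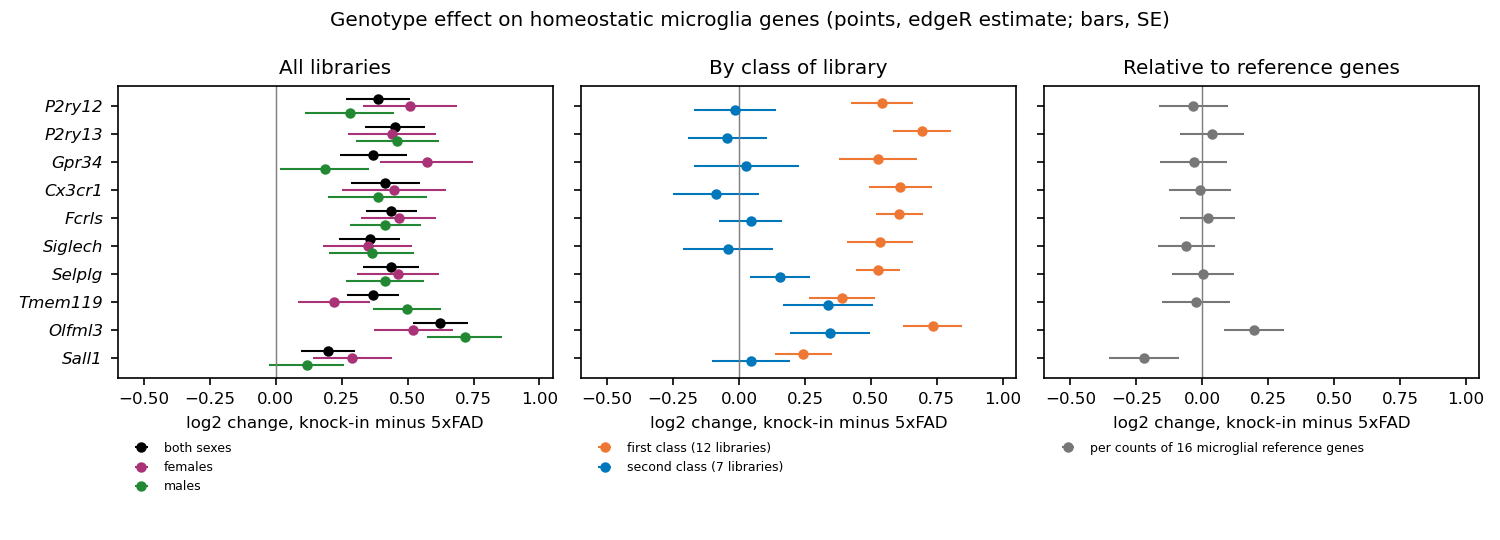
Log2 change, knock-in minus 5xFAD, of each homeostatic gene (points, edgeR estimate; bars, SE) over all libraries and by sex (left), within each class of libraries (middle) and relative to 16 microglial reference genes (right). In the middle panel the first-class estimates run from 0.24 to 0.74 and the second-class estimates from -0.087 to 0.35; on the right all lie between -0.22 and 0.20.

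To ask whether the homeostatic genes moved apart from other microglial genes, 16 reference genes that microglia also express (among them Csf1r, C1qa, Ctss, Laptm5 and Itgam) were summed per library. All 16 were above 0 in the genotype comparison, with a median of 0.39, and 0 were called by edgeR. In the first class of libraries 10 of the 16 were called higher (median 0.59), against 0.533% of all genes. In the second 0 were (median -0.0025), as was so of all genes. The members summed to 437 ± 78.6 CPM in knock-in (SD, n = 9) and 329 ± 23.4 CPM in 5xFAD libraries (n = 10), and the reference genes to 1432 ± 228 and 1090 ± 149 CPM. The member sum was 30.4 ± 1.57% of the reference sum in knock-in and 30.5 ± 3.18% in 5xFAD libraries. In the first class this ratio was lower in knock-in (31.1 ± 1.5%, n = 6) than in 5xFAD libraries (32.5 ± 2.21%, n = 6). In the second class it was higher in knock-in (29.1 ± 0.64%, n = 3) than in 5xFAD libraries (27.55 ± 1.6%, n = 4).

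With the reference sum in place of the library size, edgeR called 0 members and 0 had an unadjusted p under 0.05, while 50.1% of all genes were, nearly all lower, since this scaling moves the median of all genes to -0.39. On that scale the members ran from -0.22 for Sall1 (adjusted p = 0.150, edgeR) to 0.20 for Olfml3 (approximate 95% interval -0.027 to 0.42, adjusted p = 0.139, edgeR). Their median was -0.016. On this scale 4 members were above 0 and 6 below, against 10 above 0 per library. In the first class the member sums were 444 to 540 CPM in knock-in and 278 to 356 CPM in 5xFAD libraries, and in the second 310 to 356 and 316 to 350 CPM.

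**Figure D3:**
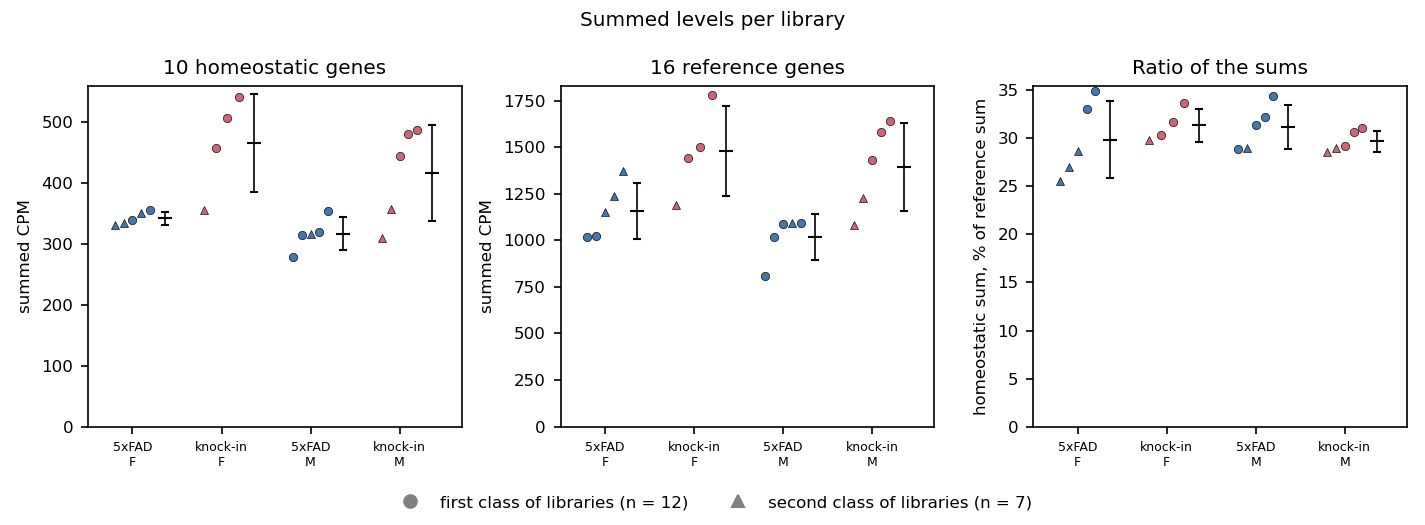
Summed CPM of the 10 homeostatic genes (left) and of the 16 reference genes (middle), and the first as a percentage of the second (right), per library, with group mean and SD. Circles are first-class and triangles second-class libraries. The ratio lies between 25.6 and 35.0% in every library.

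Genes tied to the members' functions were also compared. Of 11 tested partner genes (ligands, ADP-handling enzymes, G protein and survival factors) 10 were above 0 and 0 were called, with a median of 0.21. The 3 with the lowest p were Gnai2, the G protein subunit that Gi-coupled receptors use (0.25 ± 0.060), Tgfb1 (0.45 ± 0.13) and Entpd1, which degrades extracellular ATP and ADP (0.34 ± 0.11). Of 12 regulators of the homeostatic state, 10 were above 0 and 0 were called (median 0.26), led by Spi1, which encodes PU.1 (0.62 ± 0.13, adjusted p = 0.148, edgeR). Of 20 disease-associated genes, 20 were above 0 (median 0.47) and 1 was called, Cd68, a lysosomal protein of phagocytes (0.73 ± 0.13, adjusted p = 0.0382, edgeR), so that this list and the homeostatic one had medians on the same side of 0. In the first class 12 of these 20 were called higher (median 0.66) and 4 of the 12 regulators, against 0.533% of all genes. In the second class 0 of either were called, as was so of all genes. DESeq2 called more genes in this comparison, 0.511% of all genes higher. Its calls included Gnai2, Spi1, Tgfbr2, Lcp1 and Hexa (adjusted p = 0.00675 to 0.0341). They also included the disease-associated genes Cd68, Ctsd and Axl (adjusted p = 0.000237, 0.0010 and 0.00304).

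Markers of other cells that share some of these transcripts were also summed. Border macrophage genes came to 16.4 to 30.01 CPM over all libraries, of which Stab1 alone made 12.6 to 19.8, with a median change of 0.36 and 0 of 8 tested called. Monocyte and neutrophil genes, of which 6 of 10 listed were in the count table, summed to 2.07 to 5.72 CPM. Lymphocyte and dendritic genes, with 7 of 10 there, summed to 5.88 to 10.6 CPM, of which Flt3 alone made 4.68 to 9.635. Ccr2, Plac8, S100a8, Cd3e and Cd8a were at 0 in 1 to 5 libraries each. The neuronal list had a median of -0.047, with 0 called by edgeR. All 10 astrocyte genes were above 0 (median 0.23), with 0 called by edgeR over both sexes. In females 4 of them were called higher, against 1.13% of all genes. Over both sexes DESeq2 called Gfap (0.53, adjusted p = 0.000653). Leptomeningeal fibroblast genes (10 of 10 above 0, median 0.53), oligodendrocyte genes (10 of 10, 0.19) and endothelial and mural genes (10 of 10, 0.16) had 0 called by edgeR. Genes of the choroid plexus, which adjoins the hippocampus, had a median change of 0.85 and sums from 37.5 to 11660 CPM. Erythrocyte genes had a median of 0.64, with 3 of 5 called higher in females, against 1.13% of all genes. The part of these lists in the members' result was not tested.

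Per kilobase of transcript, the order of the members over all libraries was Fcrls (27.1 ± 6.26 CPM per kb, SD, n = 19), Selplg (26.2 ± 6.05), P2ry12 (20.3 ± 4.87), Cx3cr1 (13.3 ± 3.54), Tmem119 (12.4 ± 2.37), Gpr34 (11.7 ± 2.99), Siglech (10.8 ± 2.53), Olfml3 (7.92 ± 2.27), P2ry13 (6.09 ± 1.49) and Sall1 (5.45 ± 0.95). Lengths are of the longest principal transcript in GENCODE M21, and that of Olfml3 is 5465 bases. P2ry12 was above Cx3cr1, and Siglech above Olfml3, in all 19 libraries. Of the 9 neighbouring pairs in this order, the other 7 differed by less than the larger of their SDs. Fcrls was above Selplg in 14 of 19 libraries, Cx3cr1 above Tmem119 in 11, Tmem119 above Gpr34 in 14, Gpr34 above Siglech in 11, and P2ry13 above Sall1 in 13.

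Across libraries, with group means removed, the 45 pairs of members had a median Pearson r of 0.48 (range -0.45 to 0.86). These values describe libraries that share depth, tissue composition and class. The strongest pairs were Olfml3 with Selplg (r = 0.86), Olfml3 with Fcrls (0.81) and P2ry12 with P2ry13 (0.81). Tmem119 had a median r of 0.10 with the others, and its negative pairs with Sall1 (r = -0.45, adjusted p = 0.150, permutation test) and P2ry12 (r = -0.37, adjusted p = 0.299, permutation test) did not pass. Each pair was also taken without the 2 libraries farthest from the median of its first gene, which are not the same libraries in every pair. The median r of Tmem119 was then 0.33. Its pairs with P2ry12 (-0.19), Sall1 (-0.29) and Gpr34 (-0.23) stayed negative, and its other pairs were positive. Within the first class (n = 12) the median r was 0.24 and within the second (n = 7) 0.26. For these values only genotype means were removed, so differences between the sexes stay in them. Among the genes outside the list with profiles most like the members' mean were Csf1r (r = 0.93), Cd53 (0.92), Laptm5 (0.92) and Klhl6 (0.91), over 19 libraries and 18194 genes compared.

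**Figure D4:**
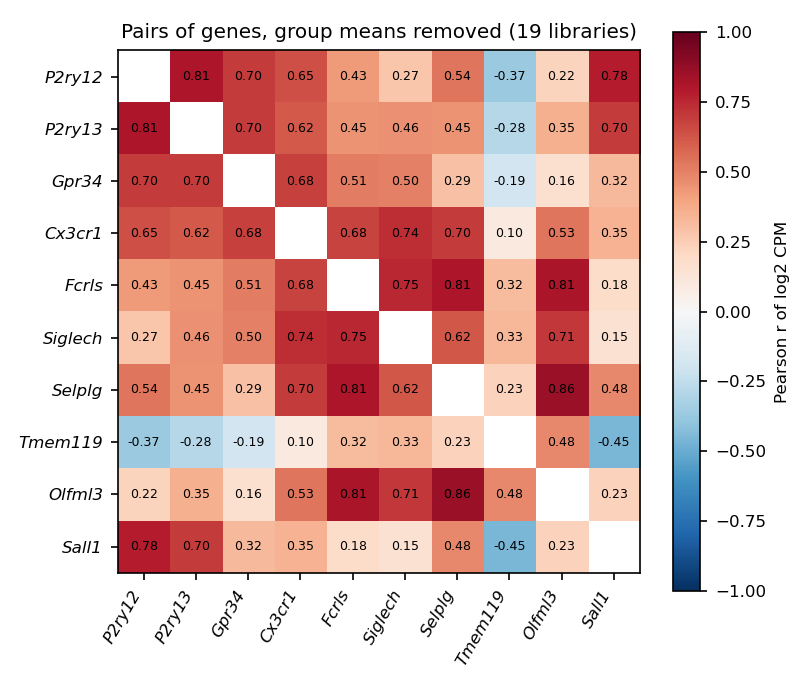
Pearson r of log2 CPM between each pair of homeostatic genes over 19 libraries after removal of group means. Red is positive and blue negative; the row of Tmem119 holds the lowest values, down to -0.45 with Sall1.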

How the data were processed

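Bulk RNA-seq of left hippocampus was deposited as 3 tables over 19 libraries. One gives estimated counts by gene, deposited as whole numbers. Another gives a deposited signal, normalized counts, for which the authors' factors vary with gene and library. The last holds variance-stabilized values, which the authors deposited on a log2 scale and which entered no test. FastQC, Salmon, DESeq2, Seurat and mm39 were named, per the submitters' processing notes, without versions or roles. RNA with an integrity number of at least 7 was used, per the labels' protocols. Strand is not given in the sources used here.

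Groups came from the genotype and sex labels, and p-values measure spread between mice. Each of the 36 same-group pairs differed beyond counting noise (chi-square per degree of freedom 10.3 to 80.9). Symbols came from GENCODE M21 for 20023 of 20655 identifiers. Genes kept by filterByExpr (minimum count 10) were tested with edgeR 4.0.16 (TMM, robust quasi-likelihood test) in R 4.3.3, with Benjamini-Hochberg adjustment and a threshold of 0.05. The SE was derived from the test's F statistic. Approximate 95% intervals take the estimate as normal with that SE, so they are narrower than the test itself would give. DESeq2 1.42.0 and limma 3.58.1 were alternatives. Member counts ran from 183 to 2271 per library. Tested on simulated data of the genotype comparison with 17954 genes, the fit recovered 59% of changes of 0.5 and 91% of changes of 1 (log2). Pair correlations used 100000 permutations within groups. The text names all 10 members, Clu, up to 3 genes with the lowest p of each list, and the 5 genes most like the members' mean, of which 1 gene is not reported here. Genes named outside that rule (Cx3cl1, Med12l, Cask, Gm33858, C1qa, Ctss, Itgam and low-level markers) were chosen after their values were seen. The members and lists were chosen with earlier results of these data known. The 2 classes of libraries, the fits within them and the authors' scaling as offsets were added after the data were seen. Python 3.11.15 with scipy 1.17.1 and matplotlib 3.10.9 did the rest.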

Additional observations from a re-analysis of the deposited data

Results flagged for a closer look

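Among 56 sets of group values examined, 2 held a library far from the rest of its group (gap over range above 0.71 for 5 libraries). Chance gives about 1 in 20, a share that 2 of 56 does not exceed. Gpr34 in 5xFAD male 6 was at 32.6 CPM, with the nearest male at 21.1 CPM (gap 0.751 of the range). Without that library the first-class genotype change of Gpr34 was 0.71 (adjusted p = 0.0014, edgeR), against 0.53 with it (adjusted p = 0.121, edgeR). Of the 19 fits that each left out 1 library, this was the only 1 to call Gpr34 in the first class (adjusted p = 0.0014 to 0.271, edgeR). The reference sum of 5xFAD male 8 was 808.4 CPM, with the nearest at 1016 CPM (gap 0.725). What sets these libraries apart was not tested.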

How the results depend on the processing

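All 10 members stayed above 0 in the genotype comparison of both sexes under each of 30 alternative settings, and in females likewise; in males 299 of 300 values did. The number called did not stay. For both sexes it was 1, against 5 with DESeq2, 0 with library size only, the authors' normalized values in limma, their factors as offsets, the noncoding level as covariate and the replicate block, and 0 to 3 when 1 library was left out. In females it was 1, against 4 with DESeq2 (557 of 18204 genes higher) and 2 with DESeq2 size factors (226 of 18204). It was 3 with no low-count filter and 3 with 1 CPM in at least 4 libraries, for which the share of all genes is not given here. Also in females, it was 0 with limma-voom (169 of 18204 genes higher) and library size only (43 of 18204). The same held with both uses of the authors' scaling, either covariate (noncoding level or class) and the replicate block. Without 1 library it was 0 to 5 in females, with 0 to 1334 of all genes called. In males it was 0, against 1 with DESeq2 (15 of 18204 genes higher) and 1 with class as covariate, for which the share of all genes is not given here. In the first class it was 6, against 4 to 8 over all settings, and in the second 0 in all. The 8 in the first class came with DESeq2 (279 of 18204 genes higher). Without 1 library the first class gave 4 to 7, with 50 to 235 of all genes called. Pairs of members past the threshold fell from 14 to 5 without the 2 libraries farthest from the median of the first gene of each pair. Over all genes, the calls for both sexes were 4, against 106 with DESeq2 and up to 127 without 1 library; in females 1013 became 0 with the noncoding covariate, the replicate block, or without knock-in female 2 or 4, and were 557 higher and 1253 lower with DESeq2. Same-numbered libraries correlated from -0.20 to 0.12, and 1 of 9 matched best with its own number. These values show no pairing by number and are too few to exclude one. The causes were not tested.

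Single values that changed sign were mostly near 0. In the interaction with sex they were, with the authors' normalized values, -0.088 for P2ry12, 0.023 for Tmem119 and 0.036 for Olfml3, and with their factors as offsets -0.041, 0.038 and 0.045. For P2ry13 and Siglech they were 0.0012 and 0.0022 with DESeq2, 0.0018 and 0.0021 with its size factors, 0.022 and 0.019 with no filter, and 0.0035 and 0.0048 with the stricter filter. For Cx3cr1, Fcrls and Selplg they were -0.070, -0.083 and -0.080 with library size only and -0.12, -0.078 and -0.16 with class as covariate. The noncoding covariate gave 0.20 for Siglech, -0.099 for Fcrls and -0.096 for Selplg. In the sex effect of 5xFAD mice, P2ry12 was 0.039 with library size only, 0.20 and 0.15 with the authors' values and factors, 0.023 with the noncoding covariate and 0.074 with class. Sall1 was 0.010 with library size only and 0.032 with class, Gpr34 -0.0025 with the noncoding covariate, and Selplg -0.18 and -0.16 with the authors' values and factors. In knock-in mice Tmem119 was 0.081 and 0.099 with these, and Selplg -0.020 with the noncoding covariate. Relative to the reference genes the noncoding covariate gave -0.0083 for P2ry13, -0.038 for Fcrls and -0.056 for Selplg, and Selplg was -0.0061 with class and -0.0094 with a smaller reference list. In the second class P2ry12 was 0.11 and 0.098 with the authors' values and factors, and Siglech 0.0075 with the noncoding covariate. Among low-count markers S100a9 was -0.35 with limma-voom, -0.12 with the authors' values, -0.68 with the noncoding covariate and -0.32 with the replicate block, and Ms4a1 was 0.28 with the noncoding covariate.

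Ranges without 1 library that cross 0 were as follows. For both sexes they were -0.048 to 0.21 for Ly6c2, -0.68 to 0.27 for S100a9 and -0.38 to 0.063 for Ms4a1, and in males -0.023 to 0.20 for Sall1. In the interaction they were -0.098 to 0.13 for P2ry13, -0.084 to 0.20 for Cx3cr1, -0.22 to 0.13 for Siglech, -0.048 to 0.21 for Fcrls and -0.065 to 0.20 for Selplg. In the sex effect of 5xFAD mice they were -0.14 to 0.077 for P2ry12, -0.13 to 0.0078 for Sall1, -0.031 to 0.24 for Gpr34 and -0.034 to 0.093 for Selplg, and in knock-in mice -0.15 to 0.0043 for Tmem119 and -0.0099 to 0.24 for Selplg. Relative to the reference genes they were -0.10 to 0.016 for P2ry12, -0.0090 to 0.070 for P2ry13, -0.094 to 0.026 for Tmem119, -0.046 to 0.051 for Cx3cr1, -0.091 to 0.064 for Gpr34, -0.013 to 0.043 for Fcrls and -0.043 to 0.049 for Selplg. In the second class they were -0.090 to 0.087 for P2ry12, -0.066 to 0.14 for Sall1, -0.11 to 0.0087 for Siglech, -0.028 to 0.076 for Gpr34 and -0.071 to 0.12 for Fcrls. For the difference between classes Tmem119 ran from -0.093 to 0.22.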
